A study of Mus musculus with 6 samples.

Results

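The 10 genes described here are 9 genes of matrix metalloproteinases (MMPs), Mmp2, Mmp3, Mmp8, Mmp9, Mmp10, Mmp12, Mmp13, Mmp14 and Mmp19, and Timp1, the gene of an MMP inhibitor. They were picked by gene name from the 47729 genes of the deposited table, in which each name had 1 row. Messenger RNA was sequenced from the epidermis of wild-type C57BL/6 mice after AKBA gel (3 libraries) or control gel (3 libraries), where AKBA is read as the common short form of acetyl-11-keto-β-boswellic acid, which is found in frankincense resin. Strain, genotype and tissue were the same in both groups. The library descriptions of the control group hold the abbreviation IMQ, with no explanation in the labels. The labels used here also name no treatment of the skin beside the gel, no age, and no number of animals per library. The p-values below therefore measure the spread between libraries only, and part of it may be technical.

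The libraries held 19066045 to 22760432 counts. CPM is a count scaled by the size of its library after the TMM adjustment named below. On this scale 3 counts correspond to between 0.128 and 0.159 CPM. This floor covers counting error only. The epidermis had been taken off the dermis with an enzyme, but transcripts of fibroblast, skeletal muscle and endothelial markers were present. The 12 fibroblast markers summed to 20482 to 27374 CPM with AKBA gel, against 20654 to 37057 CPM with control gel. The 8 basal keratinocyte markers summed to 11708 to 16240 CPM with AKBA gel, against 15085 to 33679 CPM with control gel. In such bulk tissue, fewer cells of a type and less RNA per cell cannot be told apart.

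MMPs are zinc-dependent proteases that are made as inactive precursors and cut collagens, laminins and other proteins of the extracellular matrix. In skin they are best known from wound repair, where keratinocytes at the wound edge make Mmp9 (gelatinase B), Mmp10 (stromelysin-2) and Mmp13 (collagenase-3, in rodents the main interstitial collagenase). Fibroblasts and other stromal cells are the usual source of Mmp2 (gelatinase A), Mmp3 (stromelysin-1) and the membrane-anchored Mmp14, which activates the Mmp2 precursor. Mmp8 is the neutrophil collagenase and Mmp12 the macrophage elastase. Mmp19 is made by several cell types of skin, keratinocytes among them, and was placed with the stromal genes here. Timp1 encodes a secreted protein that blocks the active site of most MMPs. Many MMP promoters carry a binding motif of the transcription factor AP-1, a dimer of Fos and Jun proteins, close to a TATA box.

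Because several of these genes lie side by side and differed in how far the groups stood apart, 3 promoters of the gene cluster on chromosome 9 are shown. Each covers 250 bases before and 50 bases after a RefSeq transcription start on the plus strand of GRCm38.p6, at chr9:7272264-7272563 for Mmp13, chr9:7502092-7502391 for Mmp10 and chr9:7445572-7445871 for Mmp3. Capitals mark matches to the AP-1 motif TGANTCA, to TATAAA and to AACCACA, a core that RUNX factors bind.
Mmp13: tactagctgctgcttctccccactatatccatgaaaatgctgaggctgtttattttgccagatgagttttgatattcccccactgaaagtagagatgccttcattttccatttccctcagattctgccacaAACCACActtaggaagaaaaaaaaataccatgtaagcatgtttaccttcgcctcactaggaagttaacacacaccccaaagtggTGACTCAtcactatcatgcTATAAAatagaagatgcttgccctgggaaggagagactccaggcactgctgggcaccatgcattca
Mmp10: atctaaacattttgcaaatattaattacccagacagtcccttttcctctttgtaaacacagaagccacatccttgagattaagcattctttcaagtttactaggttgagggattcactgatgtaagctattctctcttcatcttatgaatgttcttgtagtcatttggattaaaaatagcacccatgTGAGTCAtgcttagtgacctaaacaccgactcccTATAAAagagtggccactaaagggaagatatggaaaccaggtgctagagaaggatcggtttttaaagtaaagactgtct
Mmp3: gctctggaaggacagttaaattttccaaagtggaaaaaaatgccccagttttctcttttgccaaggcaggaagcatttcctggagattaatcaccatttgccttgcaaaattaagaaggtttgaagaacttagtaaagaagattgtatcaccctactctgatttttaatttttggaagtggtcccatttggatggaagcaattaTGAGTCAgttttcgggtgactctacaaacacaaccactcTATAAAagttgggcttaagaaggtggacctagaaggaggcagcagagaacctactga

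Each of these promoters held 1 match to TGANTCA, which starts 35 bases before the transcription start in Mmp13, 63 bases before it in Mmp10 and 46 bases before it in Mmp3. Each also held 1 TATAAA downstream of that match. It starts 16 bases before the transcription start in Mmp13, 29 bases before it in Mmp10 and 7 bases before it in Mmp3. All these distances depend on the RefSeq start used for each gene. Only the Mmp13 window among the members also held AACCACA. Motifs were searched on both strands. Of 32851 promoters in the table, 7.81% held TGANTCA, 13.6% TATAAA and 5.27% AACCACA. RefSeq promoters were found for 7 of the 10 genes. A TGANTCA match was also present in 1 of the 2 promoters of Mmp12, and these letters were not in the windows of Mmp8, Mmp14 and Timp1. The genes Mmp2, Mmp9 and Mmp19 had no entry.

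The wound-type genes had lower mean levels with AKBA gel, although edgeR's test over all genes passed none of them. With all 6 libraries their folds were the largest among the 10 genes, whereas without control replicate 3 the log2 fold change of Timp1 (-1.88) was further from 0 than that of Mmp9 (-1.81). Mmp13 (chromosome 9, 7272514 to 7283331) had 11, 3 and 15 counts in AKBA replicates 1 to 3, against 16, 388 and 224 counts in control replicates 1 to 3. Scaled to the adjusted library size these were 0.540, 0.159 and 0.639 CPM with AKBA gel, against 0.762, 16.9 and 10.7 CPM with control gel. All AKBA libraries were lower than all control libraries, but control replicate 1 stood next to the AKBA libraries and far from the other control libraries. The log2 fold change (AKBA gel relative to control gel) was -4.36 ± 1.05 (SE), with an edgeR quasi-likelihood p of 0.00364 and an adjusted p over all genes of 0.331. Without control replicate 2 it was -3.65, and without control replicate 1 it was -4.90.

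Mmp9 (chromosome 2, 164940780 to 164955850) was at 4.22, 1.59 and 5.41 CPM with AKBA gel and at 7.00, 19.3 and 20.0 CPM with control gel. The groups did not overlap, and again control replicate 1 was the lowest control library. Its log2 fold change was -2.03 ± 0.51 (edgeR adjusted p = 0.331), which is a level 4.09 times lower with AKBA gel. Mmp10 (chromosome 9, 7502352 to 7510240) had 1, 6 and 1 counts with AKBA gel and 4, 62 and 24 counts with control gel. Here the groups overlapped, since AKBA replicate 2 was above control replicate 1. Mmp10 was too low for the filter on low counts, and without that filter its log2 fold change was -3.32 ± 0.88 (edgeR adjusted p = 0.184). With 1 library left out the usual filter kept Mmp10 in 4 of 6 fits, and its log2 fold change ranged from -4.73 without AKBA replicate 2 to -2.86 without AKBA replicate 3. The filter dropped Mmp10 without control replicate 2 or control replicate 3, its highest libraries (62 and 24 counts). This range therefore does not show how far the value rests on either of them.

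Timp1 and Mmp19 had the same order of groups. Timp1 (chromosome X, 20870166 to 20874735) was at 6.43, 4.52 and 8.99 CPM with AKBA gel and at 11.8, 37.3 and 17.8 CPM with control gel. The groups did not overlap, and control replicate 2 was the highest library. The log2 fold change was -1.74 ± 0.44 (edgeR adjusted p = 0.331), and it was -1.16 without control replicate 2. Timp1 lies within the gene Syn1 on the other strand, and strand-specific counting is not stated. Syn1 itself had 16, 17 and 26 counts under AKBA gel, against 19, 37 and 16 under control gel, where Timp1 had 131, 85 and 211 counts under AKBA gel, against 248, 854 and 371 under control gel.

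Mmp19 (chromosome 10, 128790910 to 128800824) was at 18.4, 10.3 and 18.7 CPM with AKBA gel and at 21.1, 53.4 and 37.0 CPM with control gel. The groups did not overlap, with control replicate 1 close to the AKBA libraries. Its log2 fold change was -1.23 ± 0.36 (edgeR adjusted p = 0.331). Mmp19 overlaps Tmem198b on the other strand (230 to 390 counts per library) and an antisense gene that was not analysed here, and reads in the shared stretch cannot be assigned.

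**Figure D1:**
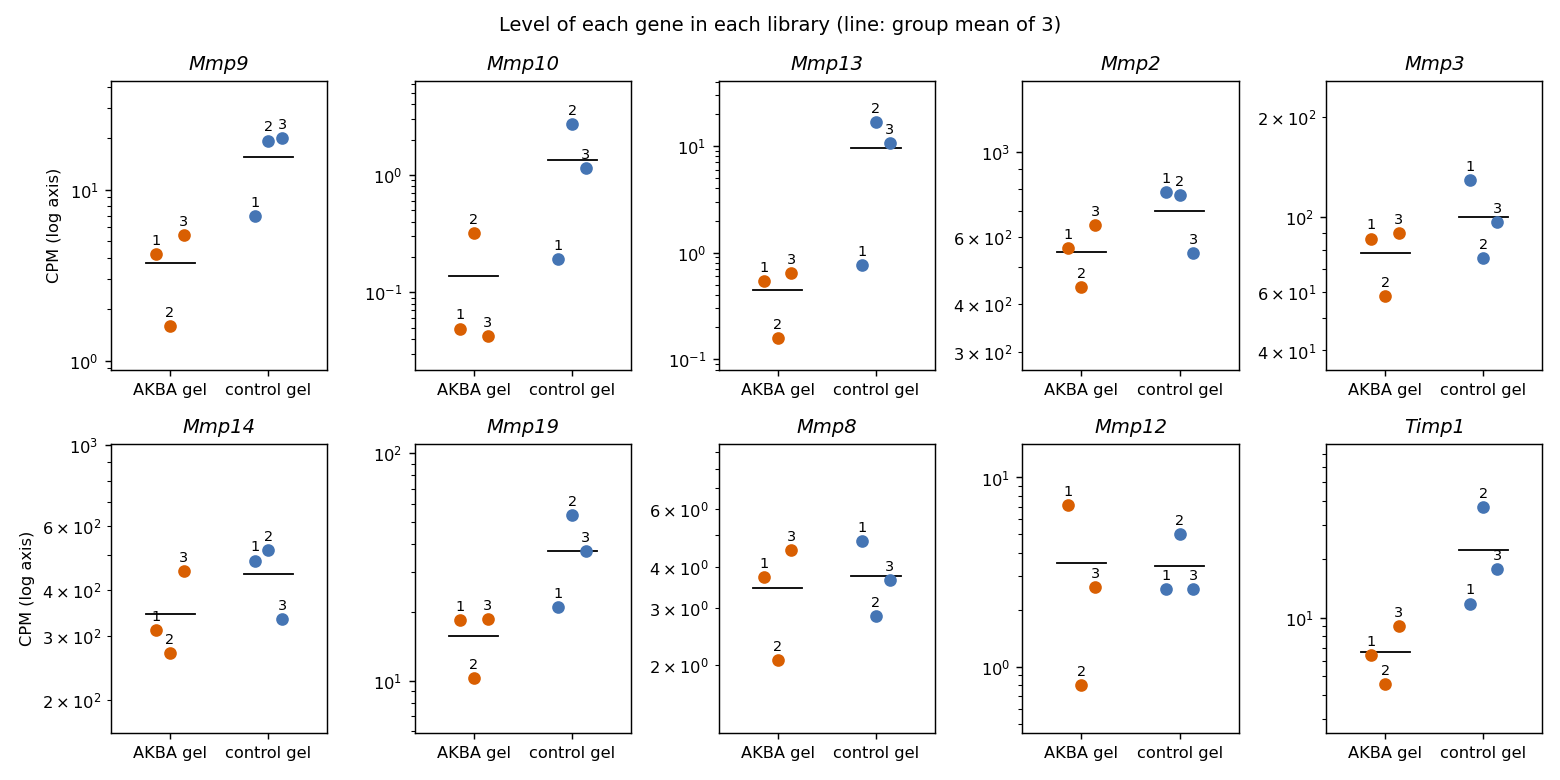
Each panel plots 1 gene, with CPM on a log axis, a point for each library numbered by replicate, and a line for the mean of the 3 libraries of a group. Mmp9, Mmp13, Mmp19 and Timp1 lie lower in every AKBA library than in every control library, and control replicate 1 is the lowest control library for each of them and for Mmp10.

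The main stromal proteases stood much higher, and their groups overlapped. Mmp2 (chromosome 8, 92827291 to 92853420) was at 559, 442 and 645 CPM with AKBA gel and at 784, 771 and 545 CPM with control gel. Mmp14 (chromosome 14, 54431612 to 54445364) was at 311, 268 and 452 CPM with AKBA gel and at 483, 514 and 333 CPM with control gel. Mmp3 (chromosome 9, 7445822 to 7455975) was at 86.5, 58.1 and 89.9 CPM with AKBA gel and at 129, 75.5 and 96.7 CPM with control gel. For all 3 genes the groups overlapped, and AKBA replicate 2 was the lowest library. The log2 fold changes were -0.35 ± 0.21 for Mmp2, -0.37 ± 0.24 for Mmp14 and -0.36 ± 0.23 for Mmp3, with edgeR adjusted p between 0.499 and 0.539. The Mmp14 count was 0.557 to 0.701 times the Mmp2 count with AKBA gel, against 0.612 to 0.667 times with control gel.

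Mmp8 and Mmp12, the members named above for leukocytes, showed no order of the groups. Mmp8 (chromosome 9, 7558456 to 7568485) was at 3.73, 2.07 and 4.52 CPM with AKBA gel and at 4.81, 2.84 and 3.64 CPM with control gel. Mmp12 (chromosome 9, 7344381 to 7369499) was at 7.11, 0.797 and 2.64 CPM with AKBA gel and at 2.57, 5.02 and 2.59 CPM with control gel, so that the highest and the lowest of the 6 libraries were both AKBA libraries. The log2 fold changes were -0.12 ± 0.33 for Mmp8 and 0.05 ± 0.67 for Mmp12, with edgeR adjusted p of 0.903 and 0.981. The sign for Mmp8 turned without AKBA replicate 2 (0.13) or control replicate 1 (0.10), and that for Mmp12 without AKBA replicate 1 (-0.96), control replicate 1 (-0.10) or control replicate 3 (-0.11). Mmp12 overlaps Mmp1b on the other strand, which had 28 counts in control replicate 2, 2 in control replicate 3 and 0 in the other libraries.

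Of the 10 genes 9 passed the filter on low counts, and edgeR's quasi-likelihood test called none of them at an adjusted p below 0.05, as it called none of the 17023 genes tested (0%). At an unadjusted p below 0.05, 4 of the 9 genes were lower with AKBA gel (Mmp9, Mmp13, Mmp19 and Timp1) and none was higher, beside 7.01% of all genes tested lower and 6.45% higher. The 2291 genes at that p in either direction became 1264 without AKBA replicate 1, 1251 without AKBA replicate 2, 1443 without control replicate 2 and 1293 without control replicate 3. They became 2739 without AKBA replicate 3 and 3146 without control replicate 1. With 1 library left out, 5 or 6 members were lower at that p, of 9 or 10 that passed the filter. The share of all genes lower in each of these fits was not counted. Mmp9, Mmp13, Mmp19 and Timp1 were among the lower members each time, and Mmp10 wherever it passed the filter. The rest were Mmp14 without AKBA replicate 3, Mmp3 without control replicate 2 and Mmp2 without control replicate 3. With all 6 libraries Mmp9, Mmp13, Mmp19 and Timp1 had no overlap of the groups with AKBA gel lower, which held for 9.1% of all genes. No member had every AKBA library above every control library, which held for 9.28%. A log2 fold change of -1 or less was also found for these 4 genes, and for 1.53% of all genes. Other tests on the same counts made calls. The Wald test of DESeq2 called 1.15% of genes lower and 0.503% higher, and these included Mmp9 (adjusted p = 0.00407), Mmp13 (0.0207), Mmp19 (0.0277) and Timp1 (0.00598) but not Mmp10 (0.0584). The exact test of edgeR called 0.852% lower and 0.458% higher, with Mmp9 (adjusted p = 0.0226), Mmp13 (0.0097) and Timp1 (0.0216) among them and Mmp19 at 0.0613.

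The authors' deposited table called 0.553% of the genes with a count lower and 0.402% higher, and it called 5 of the 10 genes lower. The authors' deposited table gives log2 fold changes of -3.74 for Mmp13, -2.35 for Mmp10, -1.88 for Mmp9, -1.69 for Timp1 and -1.18 for Mmp19. The adjusted p in the authors' deposited table was 7.64e-05 for Mmp13, 0.0266 for Mmp10, 0.00163 for Mmp9, 0.00167 for Timp1 and 0.0115 for Mmp19. The other 5 genes had values from -0.31 (Mmp14) to 0.06 (Mmp12) in the authors' deposited table and were not called. The genes called lower there were thus the 4 named above and Mmp10.

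**Figure D2:**
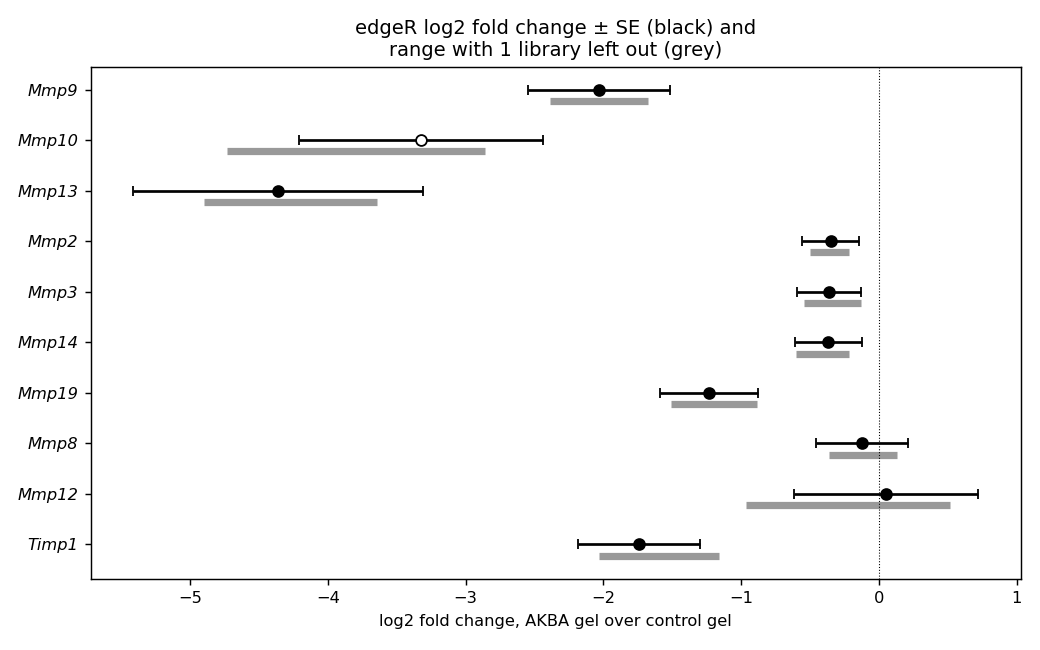
On the x axis the log2 fold change (AKBA gel relative to control gel) is drawn for each gene as a black point with its standard error (edgeR, all 6 libraries), and grey bars span the values with 1 library left out. The open point for Mmp10 comes from the fit without a filter on low counts. The grey bar of Mmp10 lacks the fits without control replicate 2 or control replicate 3, which gave no value. The values run from -4.36 for Mmp13 to 0.05 for Mmp12, and the grey bars of Mmp8 and Mmp12 cross 0.

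The gap between the wound-type and the stromal genes was compared library by library. The mean log2 CPM of Mmp9, Mmp10 and Mmp13, minus that of Mmp2, Mmp3, Mmp14 and Mmp19, was -7.47, -7.36 and -7.50 for AKBA replicates 1 to 3, against -7.22, -4.36 and -4.63 for control replicates 1 to 3. The AKBA libraries lay close together, control replicate 1 lay just above them, and control replicates 2 and 3 stood apart. The group means were -7.44 ± 0.08 with AKBA gel and -5.40 ± 1.58 with control gel (SD, n = 3 each), a difference of -2.04. With AKBA gel the SD was 0.28 for the wound-type mean and 0.36 for the stromal mean, both larger than for the gap. Mmp10 and Mmp13 had only 1 to 15 counts in the AKBA libraries, so the gap depends on the prior count of 2 added to each count. With a prior count of 0.5 the difference was -2.31. Leaving out control replicate 1 gave a difference of -2.95, leaving out control replicate 2 gave -1.51 and leaving out control replicate 3 gave -1.65. No test is given, since the genes were chosen by name with earlier results known. In the fitted values the median log2 fold change was -3.20 over the 2 wound-type genes that passed the filter and -0.36 over the 4 stromal genes, beside 0.0037 over all genes tested. With 1 library left out the stromal median ranged from -0.54 to -0.22.

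**Figure D3:**
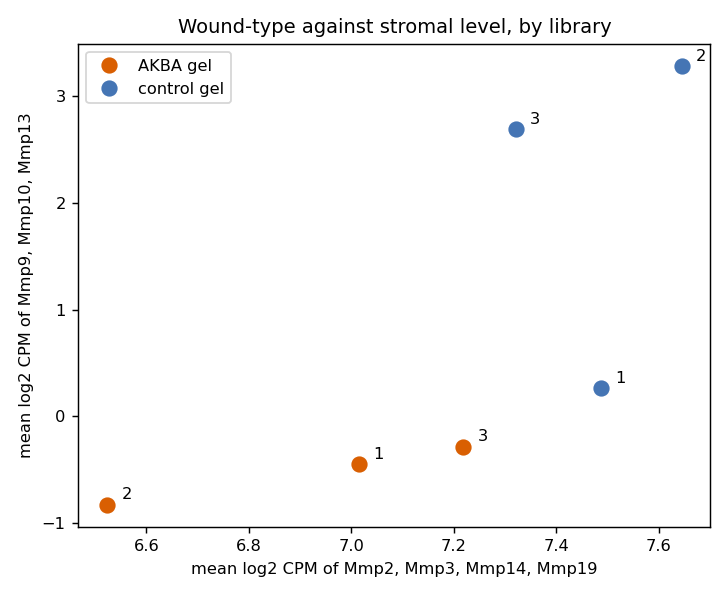
Each point is 1 library numbered by replicate, with the mean log2 CPM of the 4 stromal genes on the x axis and that of the 3 wound-type genes on the y axis. The AKBA libraries lie between -0.83 and -0.29 on the y axis, control replicate 1 at 0.26, and control replicates 2 and 3 at 3.29 and 2.69, while the stromal mean runs only from 6.52 to 7.65.

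The order of the genes by level was read from the deposited FPKM values, which are per gene length. Mmp2 was the highest in both groups, at 183 ± 41.6 FPKM with AKBA gel and 230 ± 56.6 FPKM with control gel (SD, n = 3 each). Mmp14 followed at 81.5 ± 26.9 FPKM with AKBA gel, against 103 ± 28.0 FPKM with control gel. Mmp3 was at 44.1 ± 11.0 FPKM with AKBA gel, against 55.4 ± 16.0 FPKM with control gel. The FPKM ranges of Mmp2 and Mmp14 did not overlap in either group, and those of Mmp14 and Mmp3 overlapped with control gel only. Within every library Mmp14 was above Mmp3. Timp1 (7.63 ± 2.93 with AKBA gel and 25.1 ± 16.0 with control gel) and Mmp19 (4.70 ± 1.52 with AKBA gel and 10.8 ± 4.96 with control gel) came next. Their FPKM ranges overlapped in both groups, but within every library Timp1 was above Mmp19. With AKBA gel the lower end of the order was Mmp8 (1.43 FPKM), Mmp9 (1.08), Mmp12 (0.487), Mmp13 (0.17) and Mmp10 (0.08). With control gel it was Mmp9 (4.28 FPKM), Mmp13 (3.50), Mmp8 (1.52), Mmp10 (0.78) and Mmp12 (0.47). In this lower end the ranges of neighbours overlapped at every step in both groups. Within each AKBA library the order Mmp8, Mmp9, Mmp12, Mmp13 held, whereas Mmp10 was above Mmp13 in AKBA replicate 2. With control gel no step of the lower end held in every library. By counts, Mmp2 and Mmp14 together made up 87.3% to 90.1% of the counts of the 10 genes with AKBA gel, against 82.3% to 87.7% with control gel.

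On chromosome 9 lie 10 MMP genes in a row between positions 7272514 and 7699585 (GENCODE M21, GRCm38), 5 of which are described here. Of the genes of this row with more than 10 counts in any library, Mmp13, Mmp1b and Mmp10 had their highest count in control replicate 2, and they are not next to each other. Mmp13 lies at the first place, Mmp1b at the third, and Mmp10 at the sixth. Mmp1a, at the fifth, is annotated as a polymorphic pseudogene. It is a close copy of Mmp1b with at most 5 counts, and reads could be split between the copies. Mmp3 lies between Mmp1b and Mmp10 and had 1763, 1094 and 2110 counts with AKBA gel and 2717, 1730 and 2019 counts with control gel. Mmp27 had 237, 167 and 269 counts with AKBA gel and 236, 206 and 191 counts with control gel. Mmp1b was also called lower in the authors' deposited table (log2 fold change -2.06, adjusted p = 0.0447), a gene named after its values were seen, and its difference rests on the 28 counts of control replicate 2. Mmp7 had 0 counts in all libraries and Mmp20 had 1 count in all.

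**Figure D4:**
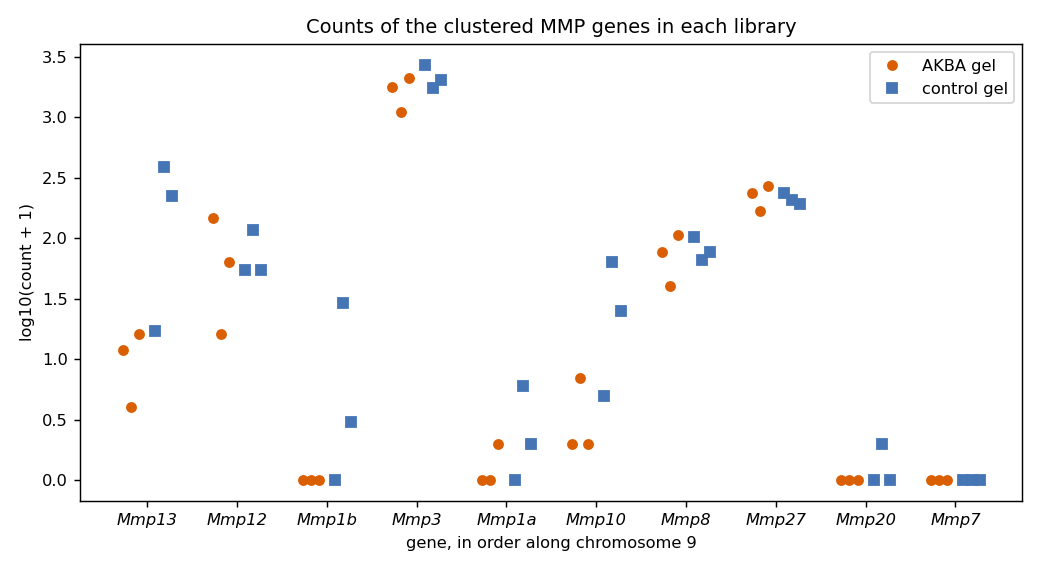
The 10 MMP genes of the cluster are set out in their order along chromosome 9, with log10 of the count plus 1 on the y axis and a marker for each library, AKBA libraries (circles) left of control libraries (squares). Mmp13, Mmp1b and Mmp10 reach 388, 28 and 62 counts in control replicate 2, and Mmp3, Mmp8, Mmp12 and Mmp27 overlap between the groups.

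Other genes of the pathway were read from lists chosen by function, and their counts at an unadjusted p below 0.05 stand beside 7.01% of all genes tested lower and 6.45% higher. Of 14 further MMP genes 8 were tested, none had an unadjusted p below 0.05, and the median log2 fold change was -0.17. The smallest p belonged to Mmp25, a membrane-anchored protease of leukocytes (3.25 ± 1.32 CPM with AKBA gel, against 5.04 ± 0.216 CPM with control gel), and Mmp16 (5.47 ± 1.36 CPM with AKBA gel, against 7.77 ± 2.04 CPM with control gel). For Mmp25 every AKBA library was below every control library, as for 9.1% of all genes tested. The groups overlapped for Mmp16. Of 5 further inhibitor genes 4 were tested with none below 0.05 and a median of 0.0051. Reck, a membrane-anchored MMP inhibitor, was at 31.8 ± 2.41 CPM with AKBA gel, against 27.3 ± 6.28 CPM with control gel. Timp4 was at 4.48 ± 0.758 CPM with AKBA gel, against 4.95 ± 0.911 CPM with control gel. Named after their values were seen, Timp2 had a log2 fold change of -0.05 ± 0.17 and Timp3 of 0.07 ± 0.18, where Timp1 had -1.74 ± 0.44.

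Among activators and partners of MMPs, 2 of 13 tested genes were lower at an unadjusted p below 0.05 (median -0.25). These were Plat, the tissue plasminogen activator (22.8 ± 4.51 CPM with AKBA gel, against 32.2 ± 0.887 CPM with control gel), and Cd44, a hyaluronan receptor that holds Mmp9 at the cell surface (300.2 ± 15.5 CPM with AKBA gel, against 419 ± 112 CPM with control gel). Of 16 matrix proteins that MMPs cut, 3 of which are also fibroblast markers here, 6 were lower and none higher at that p (median -0.44), among them elastin, Eln (197 ± 72.5 CPM with AKBA gel, against 404 ± 73.4 CPM with control gel), and fibronectin, Fn1 (480.0 ± 70.7 CPM with AKBA gel, against 693 ± 45.6 CPM with control gel). Of 17 ADAM and ADAMTS genes, which encode related metalloproteases, 4 were lower (median -0.39), among them Adam9 (83.0 ± 8.52 CPM with AKBA gel, against 109 ± 6.44 CPM with control gel) and Adamts5, an aggrecan-cutting protease (36.4 ± 6.97 CPM with AKBA gel, against 55.3 ± 10.1 CPM with control gel). By edgeR no gene of these lists passed over all genes.

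The list of MMP inducers, AP-1 and ETS genes had 12 of 21 members lower and none higher at an unadjusted p below 0.05 (7.01% and 6.45% of all genes tested), with a median of -0.48. Fos was at 10.5, 11.9 and 10.4 CPM with AKBA gel and at 19.3, 39.4 and 54.4 CPM with control gel. Its relative Fosl1, a subunit of AP-1 known from migrating keratinocytes, was at 2.16, 3.35 and 3.07 CPM with AKBA gel and at 6.00, 10.5 and 24.9 CPM with control gel. Both had no overlap of the groups and control replicate 1 as the lowest control library. Their log2 fold changes were -1.79 ± 0.34 and -2.27 ± 0.51 (edgeR adjusted p = 0.331 for both). The authors' deposited table called 5 of the 21 lower, beside 0.553% of all genes with a count. These were Fos, Fosl1, Fosb, the EGF receptor ligand Hbegf and the cytokine Il1b. Jun was at 108 ± 2.14 CPM with AKBA gel, against 117 ± 18.7 CPM with control gel, and Runx2 had a log2 fold change of -0.14, and these genes were named after their values were seen.

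Markers of cell types moved with some of the members, and their counts stand beside the same shares of all genes tested (7.01% lower and 6.45% higher). The 12 markers of activated keratinocytes summed to 6184, 2103 and 5719 CPM with AKBA gel and to 8140, 20269 and 33561 CPM with control gel. Of these markers 9 were lower and none higher at an unadjusted p below 0.05 (median -2.19), among them Sprr1b and Fosl1. The list of inducers also holds Fosl1 and Hbegf. Their sum shared with Mmp9, Mmp13, Mmp19 and Timp1 the lowest value in AKBA replicate 2 and the high values in control replicates 2 and 3, and its part in the values of these genes was not tested. It was highest in control replicate 3, whereas Mmp10, Mmp13, Mmp19 and Timp1 were highest in control replicate 2. Hair follicle markers summed to 67.6 to 2230 CPM with AKBA gel and 125 to 3140 CPM with control gel, with the highest value in control replicate 2, and none of 8 had an unadjusted p below 0.05 (median 0.03). Of the 8 basal keratinocyte markers 3 were lower and 1 higher at that p (median -0.19).

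Fibroblast markers summed to 21551, 20482 and 27374 CPM with AKBA gel and to 37057, 29655 and 20654 CPM with control gel. Most of it came from the collagens Col1a1, Col1a2 and Col3a1. Dpt, Thy1, Postn and Loxl1 were higher in control replicate 3 than in AKBA replicate 3, and the other markers were lower. Col1a1 and Col1a2 were lowest in control replicate 3, where the sum was close to its lowest value. Mmp2 and Mmp14 had their lowest value in AKBA replicate 2, as this sum had, and values in control replicate 3 below those in AKBA replicate 3, as this sum also had. Mmp3 was likewise lowest in AKBA replicate 2. Its value in control replicate 3 (96.7 CPM) was above that in AKBA replicate 3 (89.9 CPM), unlike this sum. The part of fibroblast RNA in the values of Mmp2, Mmp3 and Mmp14 was not tested. Of the 12 fibroblast markers 2 were lower at an unadjusted p below 0.05 (median -0.33), Thy1 and Loxl1. Macrophage markers summed to 1886 to 2051 CPM with AKBA gel and 2218 to 2922 CPM with control gel, without overlap, and 7 of 11 tested were lower (median -0.39), where Mmp12 had a log2 fold change of 0.05. Neutrophil markers summed to 316 to 874 CPM with AKBA gel and 747 to 3466 CPM with control gel, mostly from S100a8 and S100a9, which keratinocytes also make, and 2 of 6 tested were lower (median -0.68), where Mmp8 had a log2 fold change of -0.12. Among the neutrophil markers Ly6g had 0 counts in every library, Ngp 0 to 2 and Mpo 0 to 3, whereas the receptor genes Csf3r and Cxcr2 had 188 to 574 and 260 to 502 counts. The macrophage marker Itgam also had 0 counts in every library, where the macrophage marker Csf1r had 2524 to 5841. A marker at 0 counts therefore need not mean that its cell type was absent. Csf3r was at 15.5 ± 5.40 CPM with AKBA gel, against 23.7 ± 1.18 CPM with control gel, without overlap of the groups. The part of neutrophil RNA in the values of the members was not tested. Endothelial markers summed to 201 to 357 CPM with AKBA gel and 335 to 442 CPM with control gel (2 of 7 lower, median -0.34), and skeletal muscle markers to 5447 to 6832 CPM with AKBA gel and 4174 to 7540 CPM with control gel (1 of 7 higher).

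**Figure D5:**
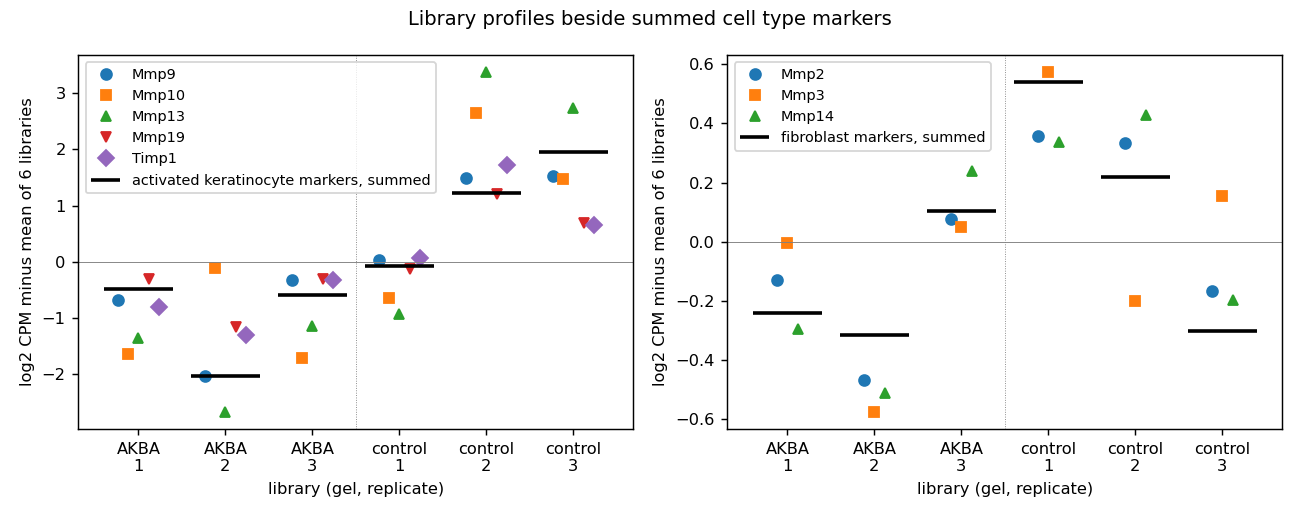
For each library on the x axis the y axis gives log2 CPM minus the mean of the 6 libraries, with a symbol for each gene and a black bar for the summed markers of activated keratinocytes (left) or fibroblasts (right). On the left Mmp13 spans -2.68 in AKBA replicate 2 to 3.39 in control replicate 2, and on the right Mmp2 spans -0.47 in AKBA replicate 2 to 0.36 in control replicate 1.

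The genes nearest in pattern to the wound-type members were found by the root mean square difference of centred log2 CPM over the 6 libraries. Among 15339 genes, those near to Mmp9 included Cdhr1 (0.22) and Syt16 (0.25). Syt16 had only 1 count in AKBA replicate 2. Nearest to Mmp10 were Ptgs2, the inducible cyclooxygenase (0.45), the growth factor gene Nrg1 (0.57) and the lectin gene Cd209e (0.66). Mmp10 had 1, 6 and 1 counts with AKBA gel and 4 in control replicate 1, so its pattern there depends on counting error and the prior count. Ptgs2 was at 0.687, 1.12 and 1.02 CPM with AKBA gel and at 1.14, 14.5 and 7.33 CPM with control gel, with its highest value in control replicate 2 as for Mmp10. Nearest to Mmp13 were the glutathione transferase gene Gsta4 (0.76), Sprr2i (0.78) and Sh2d5 (0.81). The distances are not scaled to the spread of a gene over the libraries, so they cannot be compared between members.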

How the data were processed

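Per the labels' protocols, Dispase II freed the epidermis, TRIzol was used for the RNA and a TruSeq kit for the libraries. The submitters' processing notes name CASAVA 1.8, RSEM, edgeR and the build GRCm38, without saying which tool did what. The authors deposited whole-number counts per gene, FPKM values and their own log2 fold changes (AKBA gel over control gel), p-values and adjusted p-values. Genes called in that table had an adjusted p of at most 0.0494 and a log2 change of at least 1 in size.

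Counts were analysed as deposited with edgeR 4.0.16 in R 4.3.3 (TMM scaling, default low-count filter, quasi-likelihood F test, 2-sided, Benjamini-Hochberg over all 17023 genes tested, threshold 0.05). SE is the size of the log2 fold change over the square root of F, and levels use a prior count of 2 on the log2 scale. FPKM served only to order genes. No 2 libraries of a group were copies of each other, since the chi-square of their counts was at least 28.3 per degree of freedom. The code was tested on simulated data. Members, lists and tests were chosen with earlier results of these data known. All 10 members are named, and of each other list the 2 genes with the smallest p and, for markers, the 2 most abundant, not all of which are printed. Alternatives were other scaling, filters, tests, a replicate block and libraries left out. One gene is not reported here.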

Additional observations from a re-analysis of the deposited data

How the results depend on the processing

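The number of genes called by edgeR was 0 with all 6 libraries (1193 lower and 1098 higher at an unadjusted p below 0.05, together 1251 to 3146 with 1 library left out) and 0 to 14 with 1 library left out, the 14 without control replicate 1. It was 289 by DESeq2 and 223 by the edgeR exact test, the second chosen after seeing the data. Of the members 0 were called, 0 to 1 with 1 library left out (Mmp13 without control replicate 1, adjusted p = 0.0376, with a range over these alternatives of 0.0376 to 0.677), 4 by DESeq2 and 3 by the exact test. The wound-type median was -3.20, -2.02 with a filter of 5 CPM in 3 libraries (Mmp9 alone), and -3.99 to -2.75 with 1 library left out, where 4 of the 6 fits also held Mmp10 and the gene sets therefore differ. The gap between wound-type and stromal levels was -2.95 to -1.51 with 1 library left out. The log2 fold change of Mmp8 ranged from -0.36 to 0.13 with 1 library left out and was 0.11 without AKBA replicate 2 and control replicate 3. That of Mmp12 ranged from -0.96 to 0.52, and was -0.24 with a replicate block. The log2 fold changes of the other 8 genes were below 0 under every alternative that gave one. Mmp10 had no value in the fits without control replicate 2 or control replicate 3. Deviations of same-numbered libraries from their group means had correlations of 0.08, 0.02 and -0.37. These values are too few to settle whether the numbers pair the libraries. With the replicate block 0 genes were called by edgeR. The log2 fold change of Mmp13 was then -3.81, and Mmp3 had an unadjusted edgeR p of 0.0486 (0.161 without the block). With 3 libraries a group, an exact permutation test of a gene cannot go below 0.1. The cause of these shifts was not tested.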
